A study of Mus musculus with 547 samples.

Results

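The cells described here are 74 single liver cells from mouse embryos, 35 taken at embryonic stage E17.5 and 39 at E15.5. They were chosen by their labels alone: a title that places the cell in the DLK+ sort of either day, and a putative cell type given as hepatoblast/hepatocyte. They make up 74 of the 529 single cells in the series, of which 447 came straight from embryos. Every cell sorted as DLK+ on these days carried that label, 35 of 35 on E17.5 and 39 of 39 on E15.5. The titles divide the E17.5 cells into sets 1 to 4, with 14, 8, 8 and 5 cells, and the E15.5 cells into sets 1, 3 and 4, with 12, 8 and 19 cells. What a set stands for, such as an embryo, a litter or a picking session, is not stated in the labels. Sex-linked reads, given below, show that each E15.5 set holds cells of more than 1 embryo. The same label was given to 1 E17.5 cell and 2 E15.5 cells sorted for EpCAM, which fall outside this choice.

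Hepatoblasts are the bipotent epithelial progenitors of the embryonic liver, which give rise to hepatocytes, the parenchymal cells of the organ, and to cholangiocytes, which line the bile ducts. DLK1 is a surface protein of hepatoblasts that is lost as hepatocytes mature and is widely used to sort them. Maturing hepatocytes take up the secretion of plasma proteins, the urea cycle, glucose release, bile acid synthesis and xenobiotic metabolism, and in the adult lobule these functions are divided between periportal and pericentral cells.

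The study asked how hepatoblasts divide into hepatocyte and bile duct lineages. E17.5 and E15.5 DLK+ cells are compared here with one another, E15.5 cells with the 27 DLK+ cells of E14.5, and both days with the DLK+ cells of E10.5 to E14.5. All came from untreated, uncultured livers, and the labels read here give no strain, genotype or sex and do not say whether embryos were pooled. E14.5 set 3, which holds 14 of the 27 E14.5 cells, was described differently in the labels. Single cells were picked by hand after the sort and amplified with Smart-seq2, a full-length method without molecular identifiers, and ERCC spike-in RNA was added. Separate bulk libraries of sorted DLK+ cells, 2 for each day from E10.5 to E18.5, share no library with the single cells.

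The E17.5 cells held a median of 1168273 gene reads and 8194 detected genes, and the E15.5 cells 1112918 reads and 8720 genes. Across the 74 cells the total ran from 771287 to 1478404 reads. Spike-in reads were a median of 1.01% of the total in E17.5 cells and 2.04% in E15.5 cells. All 35 E17.5 cells had more Y-linked than Xist reads, as did 26 of the 39 E15.5 cells, while 13 E15.5 cells had more Xist reads. Day and sex of the embryo are therefore partly joined and cannot be told apart for all genes. Cells with more Y-linked and with more Xist reads numbered 5 and 7 in E15.5 set 1, 6 and 2 in set 3, and 15 and 4 in set 4. No E15.5 set was thus a single embryo, and differences between cells of a set there include differences between embryos. With only the cells of more Y-linked than Xist reads, 823 genes passed the comparison of days described below, against 1014 with all cells.

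The secreted hepatocyte markers were high in every cell. Alb (albumin, ENSMUSG00000029368, GRCm38 5:90460897-90476602) had 37614, 97690 and 120210 counts per 1000000 gene reads (CPM) in the lowest, median and highest E17.5 cell, against 18451, 58384 and 92726 in E15.5 cells. Ahsg (fetuin A, 16:22891277-22899449), a secreted carrier of calcium phosphate, had 14305, 39581 and 69378 CPM in E17.5 cells, against 1671, 10283 and 23395 in E15.5 cells. Apoh (11:108343354-108414396), a phospholipid-binding plasma glycoprotein, had 2248, 5847 and 9990 CPM in E17.5 cells, against 798, 2582 and 4120 in E15.5 cells. For all 3 the ranges of the days overlapped.

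Of the enzymes among the markers, Fbp1 separated the days further than Cps1 did. Fbp1 (fructose-1,6-bisphosphatase, a step of gluconeogenesis, 13:62864753-62888282) reached 10 CPM in 35 of 35 E17.5 cells, where it ran from 37.0 over 1769 to 3305 CPM. In E15.5 cells it ran from 0 over 0.978 to 457 CPM and reached 10 CPM in 15 of 39 (38.5%, exact binomial 95% interval 23.4 to 55.4). Cps1 (carbamoyl phosphate synthetase, entry step of the urea cycle, 1:67123026-67231259) reached 10 CPM in 35 of 35 E17.5 cells and in 32 of 39 E15.5 cells. It ran from 36.3 over 1220 to 2132 CPM in E17.5 cells and from 0 over 281 to 1386 CPM in E15.5 cells. For both enzymes the ranges of the days overlapped. At E15.5 the label therefore covered cells with all secreted markers, of which most had under 10 CPM of Fbp1. Intervals on cell counts cover counting error only.

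Markers of other liver cell types were low. The summed cholangiocyte list had a median of 70.3 CPM in E17.5 cells and 62.5 CPM in E15.5 cells, against 11554 CPM in the labelled cholangiocytes of E17.5 and 4156 CPM in those of E15.5. Krt19 and Tspan8, keratin and tetraspanin of bile duct cells, had no read in any of the 74 cells, and Spp1 (osteopontin) reached 10 CPM in none of them. Other members of the list were present: of its 14 genes, 8 reached 10 CPM in some E17.5 cell and 5 in some E15.5 cell. The list's sum passed 100 CPM in 11 E17.5 and 11 E15.5 cells. Sox9, a further marker of labelled cholangiocytes, reached 10 CPM in 7 of 35 E17.5 cells (interval 8.44 to 36.9%, highest 49.8 CPM). In E15.5 cells Sox9 did so in 1 of 39. Epcam reached 10 CPM in 6 of 35 E17.5 cells (17.1%, interval 6.56 to 33.6), 3 each in sets 1 and 2, and in 0 of 39 E15.5 cells, which allows up to 9.03%. Summed endothelial markers had a median of 0.777 CPM in E17.5 and 0 CPM in E15.5 cells, and macrophage and leukocyte markers 5.81 CPM in E17.5 and 0 CPM in E15.5 cells. Erythroid markers had medians of 49.5 CPM in E17.5 and 60.7 CPM in E15.5 cells, and mesothelial markers were at a median of 0 on both days. Stellate cell markers, Reln among them, had medians of 20.6 CPM in E17.5 and 85.9 CPM in E15.5 cells, while Col1a2, Col3a1, Dcn and Postn were at 0. What these traces contribute to the differences between days was not tested.

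**Figure D1:**
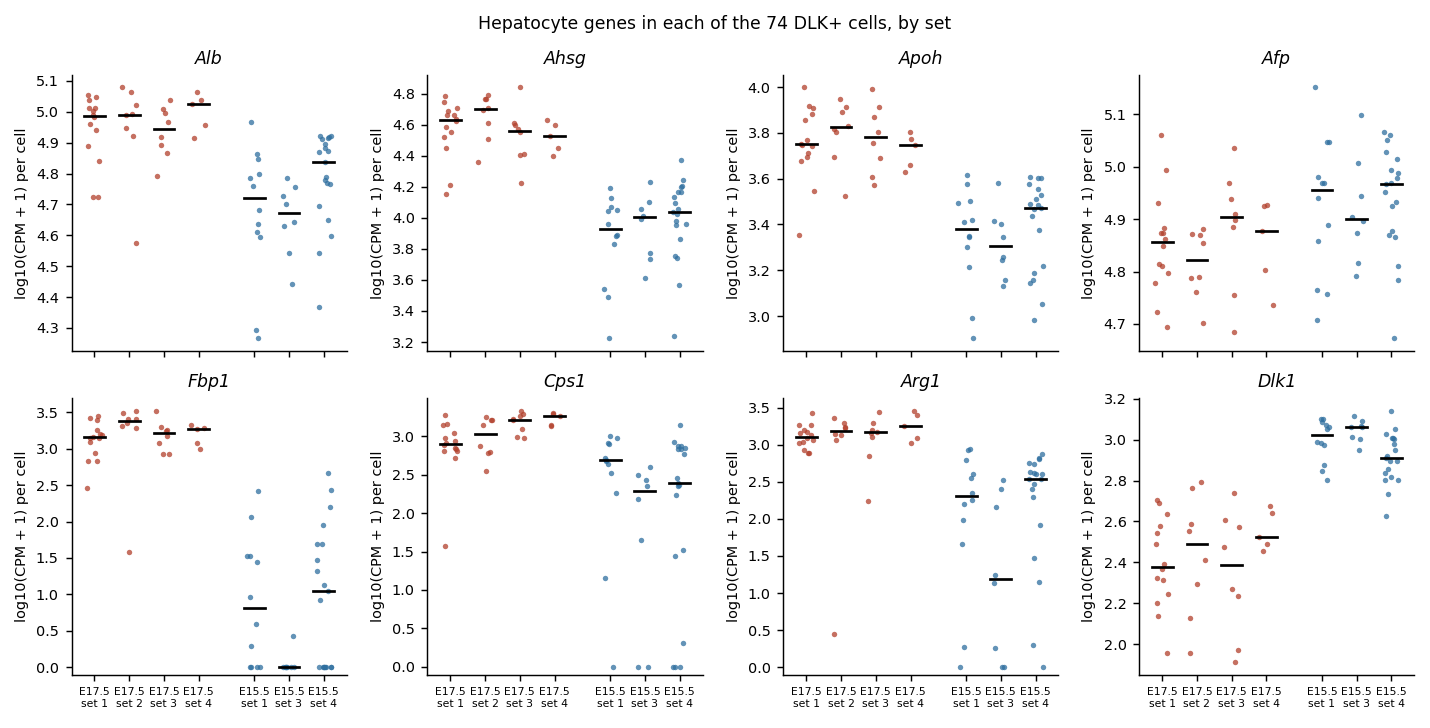
Level of 8 genes in each of the 74 cells, as log10(CPM + 1), by set; E17.5 sets stand left of E15.5 sets, each point is 1 cell and bars are set medians. Alb, Ahsg, Apoh and Afp were high in every set, whereas Fbp1 and Arg1 spread over E15.5 cells and lay high in nearly all E17.5 cells, and Dlk1 was lower at E17.5.

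Secreted proteins led the protein-coding genes in each library. Corrected for transcript length (TPM, which sums to 1000000 in a cell, computed from the counts), Alb averaged 75658 TPM in E17.5 cells and 47923 TPM in E15.5 cells. Afp (alpha-fetoprotein, the fetal relative of albumin) averaged 58516 TPM in E17.5 cells and 72348 TPM in E15.5 cells. Alb thus stood above Afp per length at E17.5 and below it at E15.5. Fgb, the fibrinogen beta chain, averaged 20934 TPM at E17.5 and 4461 TPM at E15.5. Apoa1, the main protein of high-density lipoprotein, averaged 29163 TPM at E17.5 and 19581 TPM at E15.5, and Apoa2 15575 TPM at E17.5 and 20139 TPM at E15.5. Of the 20 genes of highest mean TPM, 13 were protein coding, and the other 7 included mitochondrial-like pseudogenes whose reads may be shared between copies. The highest of all was the lincRNA Yam1, at 74506 TPM in E17.5 and 70648 TPM in E15.5 cells.

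By shares of reads, the 71 genes of the plasma protein lists took 35.8% ± 1.12 in E17.5 sets and 25.8% ± 0.773 in E15.5 sets (mean ± SD, n = 4 and 3 sets). Alb alone took 9.30% ± 0.574 in E17.5 sets and 5.42% ± 0.899 in E15.5 sets. The 100 most abundant genes took 58.7% at E17.5 and 46.4% at E15.5. This concentration affects scaling: trimmed-mean (TMM) scaled log2 changes between the days lie 0.55 above those computed from shares of reads. Values called normalised CPM below are TMM-scaled, and a rise near 0.55 on that scale is close to 0 as a share of reads.

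To compare the days, the reads of the cells in each set were summed and the 4 E17.5 sums were tested against the 3 E15.5 sums with edgeR's quasi-likelihood test, calling genes with a Benjamini-Hochberg adjusted p below 0.05. Of 16838 genes tested, 432 were higher at E17.5 (2.57% of genes tested) and 582 lower (3.46%), 6.02% in all. These are the shares to set beside the counts of called list members below. The median log2 change of all genes was 0.00. Leaving out E15.5 set 1 or set 3 lowered the total to 523 and 574 calls. DESeq2 called 1530 genes, and the split between directions moved with the fit: 649 higher and 386 lower with only the cells of these 2 days, 487 and 241 with the set number as a block, 514 and 518 with DESeq2 size factors.

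Most plasma carriers rose. Of 18 tested carriers and inhibitors, 12 were higher at E17.5 and 1 was lower, with a median log2 change of 1.17. Alb had 151572, 168937, 151356 and 172580 normalised CPM in E17.5 sets, against 58754, 51853 and 80915 in E15.5 sets (log2 change 1.34 ± 0.35 SE, edgeR adjusted p = 0.0181). Ahsg had 66895, 85069, 63491 and 57597 in E17.5 sets, against 9690, 10702 and 14224 in E15.5 sets (2.56 ± 0.60, edgeR adjusted p = 0.00692). Apoh had 10029, 11977, 10976 and 9159 in E17.5 sets, against 2734, 2463 and 3429 in E15.5 sets (1.87 ± 0.39, edgeR adjusted p = 0.00223). The sets of the days did not overlap for any of the 3.

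A2m (alpha-2-macroglobulin, a protease inhibitor) averaged 4646 ± 834 normalised CPM at E17.5 and 519 ± 253 at E15.5, a log2 change of 3.16 ± 0.57. Fetub, a protease inhibitor related to Ahsg, averaged 315 ± 76.6 at E17.5 and 13.8 ± 6.45 at E15.5, and Trf (transferrin, the iron carrier) 7357 ± 791 at E17.5 and 2700 ± 309 at E15.5. With any set left out in turn, A2m, Apoh, Fetub, Serpina1a and Trf remained called, and the count for carriers was lowest, 5, without E15.5 set 1. Without that set the edgeR adjusted p was 0.102 for Alb and 0.0565 for Ahsg, and without E15.5 set 3 it was 0.118 for Alb. Afp was not called: it averaged 124375 ± 7356 normalised CPM at E17.5 and 102328 ± 9527 at E15.5 (log2 change 0.28 ± 0.21, edgeR adjusted p = 0.532), while its median over cells in unscaled CPM was 74210 at E17.5 and 87793 at E15.5.

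The carrier that moved the other way was Serpina6, the corticosteroid-binding globulin (12:103646630-103657212). It had 2195, 2015, 1685 and 1315 normalised CPM in E17.5 sets, against 11261, 13322 and 10509 in E15.5 sets (log2 change -2.70 ± 0.24, edgeR adjusted p = 5.3e-09). Even single cells hardly met: the range was 76.1 to 4512 CPM in E17.5 cells and 4529 to 16282 CPM in E15.5 cells. Over the earlier days Serpina6 sets averaged 1930 normalised CPM at E10.5, 6027 at E11.5, 8695 at E12.5, 9706 at E13.5 and 12914 at E14.5, each higher than the day before.

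Coagulation factors rose in 9 of 20 tested (median log2 change 0.98) and none fell. The 3 fibrinogen chains, which assemble into the precursor of fibrin, rose together. Fgb had 32757, 44743, 30318 and 35433 normalised CPM in E17.5 sets, against 5076, 4344 and 5371 in E15.5 sets, with no overlap (log2 change 2.86 ± 0.31, edgeR adjusted p = 4.7e-07). Fga and Fgg rose by 2.36 ± 0.30 and 2.46 ± 0.33 on the same scale. Prothrombin (F2, 1.06 ± 0.23) and kininogen (Kng1, 1.55 ± 0.29) also rose. These 5 remained called with any set left out, the lowest count of the list being 5.

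The promoters of Alb, Afp, Fga and Fgb are shown as examples of windows that hold the motif marked here; the window of Apoh holds no match. Each is 250 bases from RefSeq on GRCm38.p6, 5′ to 3′ on the gene's strand and ending just before the RefSeq start, which for Alb differs from the GENCODE gene start given above: chr5:90460620-90460869 (plus strand) for Alb, chr5:90490464-90490713 (plus) for Afp, chr3:83025903-83026152 (plus) for Fga and chr3:83049864-83050113 (minus) for Fgb. Capitals mark GTTAAT, one arm of the palindrome bound by HNF1 factors, or its reverse complement.
Alb: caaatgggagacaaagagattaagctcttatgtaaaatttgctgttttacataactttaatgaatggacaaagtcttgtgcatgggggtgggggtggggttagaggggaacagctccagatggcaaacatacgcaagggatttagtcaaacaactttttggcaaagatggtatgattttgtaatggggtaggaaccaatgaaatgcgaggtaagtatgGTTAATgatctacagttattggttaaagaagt
Afp: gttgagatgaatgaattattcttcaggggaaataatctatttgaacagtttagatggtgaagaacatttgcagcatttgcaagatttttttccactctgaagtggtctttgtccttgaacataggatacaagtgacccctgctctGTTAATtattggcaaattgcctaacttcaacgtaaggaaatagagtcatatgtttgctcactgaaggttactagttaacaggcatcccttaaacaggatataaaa
Fga: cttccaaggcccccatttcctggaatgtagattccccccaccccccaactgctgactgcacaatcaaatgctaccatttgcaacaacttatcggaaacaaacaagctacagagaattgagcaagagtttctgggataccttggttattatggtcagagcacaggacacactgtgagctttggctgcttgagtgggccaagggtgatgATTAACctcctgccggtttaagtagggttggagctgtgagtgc
Fgb: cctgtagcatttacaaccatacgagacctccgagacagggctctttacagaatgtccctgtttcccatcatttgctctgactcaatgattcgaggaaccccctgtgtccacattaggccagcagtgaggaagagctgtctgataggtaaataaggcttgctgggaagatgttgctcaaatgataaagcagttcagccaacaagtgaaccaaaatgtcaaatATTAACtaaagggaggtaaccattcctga
The first base of the match lay 32 bases before the RefSeq start in Alb, 105 in Afp, 43 in Fga and 29 in Fgb. On either strand GTTAAT occurred in 2113 of 32851 promoter windows of the same length (6.43%), in 18 of the 56 plasma protein genes with a window (32.1%) and in 1 of 17 cell cycle genes. The C/EBP-type letters TTGCNNAA occurred in 9.56% of all windows and in 19 of 56 (33.9%), and the TATA letters TATAAA in 12.4% of all windows and in 10 of 56 (17.9%), Afp among them. Shares of all windows count windows, whereas a gene was counted if any of its windows matched, so they are not directly comparable. The 18 genes with GTTAAT include the related Serpina1a, Serpina1b, Serpina1c and Serpina1d. Searches covered both strands, and GTTAAT is also part of the full HNF1 palindrome, which 0.00913% of windows held. A match of letters describes the window only.

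Complement genes rose in 4 of 18 tested (median 0.70), with no fall. C8b, part of the membrane attack complex, had 1269, 1206, 1235 and 1174 normalised CPM in E17.5 sets, against 257, 290 and 425 in E15.5 sets (log2 change 1.91 ± 0.36, edgeR adjusted p = 0.000798). C3, the central component, rose by 1.38 ± 0.27, and both remained called with any set left out. Among acute-phase proteins 5 of 8 tested rose (median 1.82), of which Itih4 averaged 3465 ± 316 at E17.5 and 717 ± 205 at E15.5. The fewest acute-phase calls were 2, without E15.5 set 3. Apolipoproteins rose in 3 of 14 (Apoa1, Apoc1 and Apoe, median 0.67), and none of the 3 was called without E15.5 set 1 or 3 or E17.5 set 3.

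Glucose-releasing enzymes were among the genes with the widest gaps between days. Of 14 tested genes for gluconeogenesis and glycogen, 6 rose and none fell, with a median log2 change of 1.77. Fbp1 had 2490, 4045, 2825 and 2772 normalised CPM in E17.5 sets, against 43.8, 0.244 and 76.2 in E15.5 sets (log2 change 6.23 ± 1.46, edgeR adjusted p = 0.00722, and 0.0515 without E15.5 set 1). G6pc, the glucose-6-phosphatase that releases free glucose (11:101367561-101377903), averaged 84.5 ± 27.3 normalised CPM at E17.5, with 2061 reads in E17.5 sets and 0 in E15.5 sets. With reads pooled over the sets of a day that is at least 1090-fold higher, against a floor of 3 reads over the E15.5 group (edgeR adjusted p = 0.00195, and 0.309 with DESeq2). Slc37a4, the transporter that feeds the same enzyme, rose by 1.45 ± 0.27 and Pygl (glycogen phosphorylase) by 1.15 ± 0.26.

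G6pc was far from even among cells. It reached 10 CPM in 12 of 35 E17.5 cells (34.3%) and in 0 of 39 E15.5 cells, whereas Fbp1 reached it in all 35 E17.5 cells. The days before set the Fbp1 values in context: sets averaged 0.107 normalised CPM at E10.5, 0.0828 at E11.5, 0.0291 at E12.5, 2.15 at E13.5, 1.87 at E14.5, 40.1 at E15.5 and 3033 at E17.5.

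Of 20 tested genes of the urea cycle and amino acid breakdown, 3 rose, beside 2.57% of all genes tested, and none fell. The list's median log2 change was 1.03. Arg1 (arginase, the last step of the urea cycle) had 2327, 2617, 2531 and 3212 normalised CPM in E17.5 sets, against 354, 106 and 414 in E15.5 sets (3.20 ± 0.54, edgeR adjusted p = 0.000255). Fah, the last enzyme of tyrosine breakdown, averaged 1837 ± 234 at E17.5 and 415 ± 101 at E15.5 (2.15 ± 0.22). Sds (serine dehydratase) had 132 reads in E17.5 sets and 0 in E15.5 sets, at least 69.8-fold higher for the pooled reads. In bulk the gap was smaller, with 11.1 and 4.34 normalised CPM in E17.5 libraries and 0.818 and 2.41 in E15.5 libraries. Cps1 did not pass: it had 1489, 1969, 2671 and 2907 normalised CPM in E17.5 sets and 582, 193 and 503 in E15.5 sets (2.41 ± 1.00, edgeR adjusted p = 0.180). Its sets did not overlap, and with only the cells of these 2 days in the fit its adjusted p was 0.00264.

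Of 17 fatty acid oxidation genes 10 rose and 1, Cpt2, fell (median 0.74); the call of Cpt2 was lost without E15.5 set 1 or 3 or E17.5 set 4, and it was not called in bulk (-0.28 ± 0.20). Acadm (medium-chain acyl-CoA dehydrogenase) had 931, 989, 1051 and 1822 normalised CPM in E17.5 sets, against 328, 345 and 451 in E15.5 sets (1.68 ± 0.24, edgeR adjusted p = 2.1e-05). Cyp4a10, an omega-hydroxylase of fatty acids, had 125, 40.2, 120 and 4.79 in E17.5 sets and no read in E15.5 sets, at least 1066-fold higher for the pooled reads, in which sets with more reads weigh more. In bulk Cyp4a10 had 18.1 and 14.4 normalised CPM in E17.5 libraries and 0.117 and 0.121 in E15.5 libraries, a smaller gap. The count of rises in cells was lowest, 6, without E15.5 set 1. In cells, genes of sterol and fatty acid synthesis went the other way or did not pass: 1 of 20 rose (Elovl6) and 3 fell, Mvk and Idi1 among them, with a median of -0.32. The falls were not called in bulk, where 2 of 20 rose (Insig1 and Elovl6), none fell and the median was 0.0. Mvk (mevalonate kinase) had 113, 72.5, 66.5 and 89.9 normalised CPM in E17.5 sets, against 142, 138 and 146 in E15.5 sets (-0.73 ± 0.20), and none of the 3 falls was called without E15.5 set 3 or without E17.5 set 4.

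For bile acids 2 of 13 tested genes rose (median 1.36). Cyp7a1, the rate-limiting enzyme of bile acid synthesis (4:6265612-6275633), had 175, 253, 180 and 393 normalised CPM in E17.5 sets, against 7.60, 0.609 and 5.69 in E15.5 sets (5.73 ± 1.58, edgeR adjusted p = 0.0255). It reached 10 CPM in 31 of 35 E17.5 cells and 4 of 39 E15.5 cells. Slc10a1, the sodium-dependent bile acid importer, averaged 708 ± 111 at E17.5 and 30.4 ± 21.7 at E15.5 (4.53 ± 1.09). Neither was called without E15.5 set 1 (adjusted p = 0.0878 and 0.0643) or without set 3 (0.128 and 0.0681), and Cyp7a1 was also lost without E15.5 set 4 (0.0839) or E17.5 set 4 (0.0636).

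Of 19 tested genes of xenobiotic metabolism 5 rose and none fell (median 2.07). Cyp2c40, a member of the Cyp2c family, had 317, 822, 357 and 134 normalised CPM in E17.5 sets, against 3.80, 2.19 and 3.40 in E15.5 sets (7.01 ± 0.81, edgeR adjusted p = 9.8e-07). Cyp2e1, which oxidises ethanol, had 55.5, 574, 195 and 0.282 in E17.5 sets, against 1.21, 3.53 and 0.618 in E15.5 sets. It was called, yet E17.5 set 4 lay below every E15.5 set, and only 6 of 35 E17.5 cells reached 10 CPM. The level of E17.5 set 1 came mostly from 1 cell at 471 CPM and that of set 2 from 1 cell at 2629 CPM. No other cell of these 2 sets passed 3.63 CPM. Without E15.5 set 1 or set 3 the count of this list was 2, Cyp2c40 and Cyp2e1.

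Among 20 liver transcription factors only Onecut1 (HNF6, 9:74861921-74891781) was called. It had 54.3, 45.5, 80.3 and 76.6 normalised CPM in E17.5 sets, against 6.87, 3.53 and 3.40 in E15.5 sets (3.80 ± 0.43, edgeR adjusted p = 7.1e-07), and reached 10 CPM in 32 of 35 E17.5 and 6 of 39 E15.5 cells. Earlier Onecut1 sets averaged 17.1 normalised CPM at E10.5, 11.3 at E11.5, 16.4 at E12.5, 9.24 at E13.5 and 7.72 at E14.5. The list's median was 0.37, which lies below the scaling difference of 0.55. Hnf4a, a central regulator of hepatocyte genes, changed by -0.31, Cebpa by 0.98 (edgeR adjusted p = 0.280) and Nr1h4, the bile acid receptor FXR, by 2.44 (edgeR adjusted p = 0.154), none of them called in cells.

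In a list of hormone receptors, growth factors and iron genes 4 of 16 tested rose and 1 fell (median 1.09). Prlr, the prolactin receptor, averaged 125 ± 33.1 normalised CPM in E17.5 sets and 0.116 ± 0.101 in E15.5 sets, with 2813 and 5 reads (9.80 ± 1.49, edgeR adjusted p = 7.1e-05). It reached 10 CPM in 27 E17.5 cells and in none of E15.5. Ghr, the growth hormone receptor, rose by 1.30 ± 0.20. Epo, the erythropoietin hormone made by fetal hepatocytes, had 0 reads in E17.5 sets and 172 in E15.5 sets, at least 36.1-fold lower for the pooled reads. In bulk Epo was low on both days, at 0.910 and 0.808 normalised CPM in E17.5 libraries and 2.86 and 1.75 in E15.5 libraries (-1.42 ± 0.44). With the set number as a block the edgeR adjusted p of Epo in cells was 0.114, and in bulk its call was lost without either E17.5 library or without E15.5 library 1.

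Proliferation genes were lower or not called. Of 20 cell cycle genes 10 were lower at E17.5 and none higher, with a median log2 change of -2.30. Top2a, the topoisomerase of dividing cells, averaged 10.3 ± 7.90 normalised CPM at E17.5 and 138 ± 80.9 at E15.5 (-3.67 ± 0.74, edgeR adjusted p = 0.00164). Cdk1, the mitotic kinase, had 20.7, 20.7, 6.65 and 18.3 in E17.5 sets, against 238, 110 and 74.2 in E15.5 sets (-3.07 ± 0.45), and Mcm5, a replication helicase subunit, fell by 2.45 on the log2 scale. The count ran from 6, without E15.5 set 1, to 18. Mki67 averaged 18.1 at E17.5 and 57.7 at E15.5 and was not called (edgeR adjusted p = 0.276).

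Genes of the fetal state fell in 7 of 16, with none higher and a median of -0.74. Dlk1 (12:109452823-109463336), the gene of the sorting marker, had 465, 571, 435 and 625 normalised CPM in E17.5 sets, against 1129, 1261 and 1084 in E15.5 sets (-1.14 ± 0.33, edgeR adjusted p = 0.0304). Without E15.5 set 1 or 3, or without E17.5 set 1, 2 or 3, its adjusted p lay between 0.0573 and 0.0974. The cells were sorted on this protein, so cells with little of it were not sampled. Cited1, a transcriptional coregulator of fetal tissues, had 19.8, 17.3, 5.73 and 1.13 in E17.5 sets, against 155, 116 and 173 in E15.5 sets (-3.68 ± 0.47, edgeR adjusted p = 5.0e-06). Cited1 reached 10 CPM in 7 of 35 E17.5 cells and in all 39 E15.5 cells.

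Ccnd1 (cyclin D1) averaged 42.9 ± 7.26 at E17.5 and 154 ± 11.6 at E15.5 (-1.85 ± 0.16), and Igf2bp1, a fetal RNA-binding protein, 38.9 ± 10.8 at E17.5 and 111 ± 23.2 at E15.5. Not all fetal genes moved: H19, Igf2 and Gpc3 changed by 0.63, 0.13 and 0.02, none called. Ccnd1, Cited1, Hmga2 and Igf2bp1 remained called with any set left out, and the list's lowest count was 4.

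**Figure D2:**
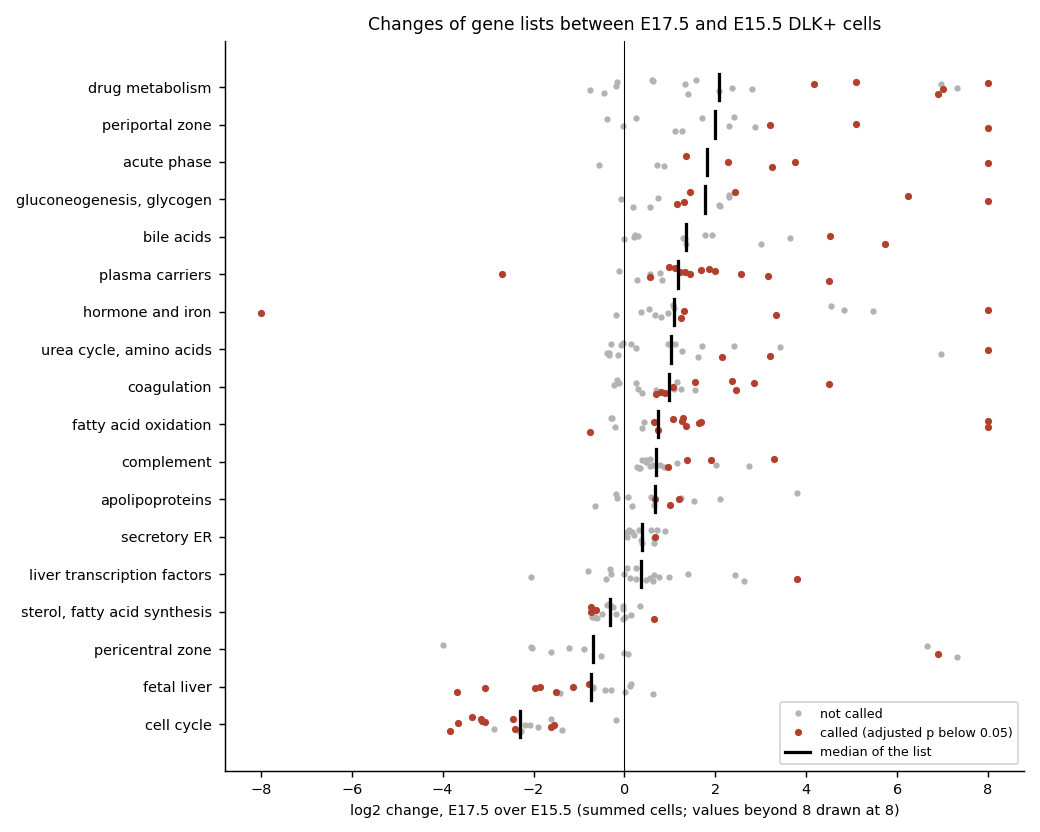
Change of 18 gene lists, E17.5 against E15.5, in summed DLK+ cells; each point is 1 gene's log2 change, bars are list medians and values beyond 8 are drawn at 8. The cell cycle median of -2.30 and the fetal liver median of -0.74 lie left of 0, and the gluconeogenesis (1.77), xenobiotic (2.07) and periportal (2.00) medians right of it.

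The remaining lists had few calls. Among 14 genes of the secretory endoplasmic reticulum 1 rose (Xbp1, median 0.38), and of the 13 dissociation stress genes tested none was called (median 0.18). Of other cell types' genes, 1 of 13 of the cholangiocyte list (Epcam) and 1 of 9 of the macrophage and leukocyte list (Csf1r) were called higher, both with overlapping sets, and none of the endothelial, stellate, mesothelial or erythroid lists. Without E15.5 set 1 none of the 3 was called, with an edgeR adjusted p of 0.152 for Xbp1, 0.145 for Epcam and 0.161 for Csf1r. For zonal genes the lists differed in sign. Of 12 periportal genes, active near the portal vein in adult liver, 3 rose (Arg1, Sds and Cyp2f2) with a median of 2.00, and of 12 pericentral genes 1 rose (Cyp2e1) with a median of -0.70. Cyp2f2 was not called without any 1 of the 3 E15.5 sets or E17.5 set 2 or 3. Glul, glutamine synthetase of pericentral cells, changed by -0.02, and Gulo, an enzyme of vitamin C synthesis, averaged 155 normalised CPM at E17.5 and 359 at E15.5 (-1.21, edgeR adjusted p = 0.129).

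Some of the largest changes lay outside these lists. Hsd3b6, a steroid dehydrogenase, was at least 883-fold higher at E17.5 in pooled reads, and Gpc4, a heparan sulfate proteoglycan, at least 336-fold, each with no read in E15.5 sets. Both were read in E15.5 bulk, and the gaps there were smaller. Hsd3b6 had 17.4 and 15.9 normalised CPM in E17.5 libraries and 0.234 and 0.181 in E15.5 libraries, and Gpc4 30.6 and 40.5 against 2.98 and 4.1. The bounds therefore hold for the reads of these cells only. Gpc4 was even over the sets (21.7, 30.3, 35.8 and 29.3 normalised CPM at E17.5), whereas Hsd3b6 was not (59.3, 172, 4.59 and 48.2). Of the falls, Trim59, a ubiquitin ligase of the TRIM family, had 0 reads in E17.5 sets and 439 in E15.5 sets, at least 92.3-fold lower for the pooled reads. In bulk it was still read at E17.5, at 4.75 and 9.09 normalised CPM in E17.5 libraries and 21.3 and 16.7 in E15.5 libraries (-1.46 ± 0.30). Gypc, a red cell membrane glycoprotein gene, had 1 read against 643, a depth-adjusted ratio of 405 (95% counting interval 72.5 to 16037). Slc16a3, the lactate exporter MCT4, averaged 0.695 ± 0.849 at E17.5 and 53.5 ± 33.3 at E15.5 (-6.57 ± 1.04).

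Few genes were called between the E15.5 cells and those of the day before. E15.5 was tested against E14.5 in the same fit, which shares the E15.5 sums with the comparison above, and of the 16838 genes 1 was higher (0.00594%) and 1 lower (0.00594%), 0.0119% in all. Per1, a circadian repressor, averaged 31.6 normalised CPM at E15.5 and 6.59 at E14.5 (2.28 ± 0.41, edgeR adjusted p = 0.0297), and Rcn3, a calcium-binding protein of the endoplasmic reticulum, 2.70 at E15.5 and 36.3 at E14.5 (-3.75 ± 0.61, edgeR adjusted p = 0.0154). At an unadjusted p below 0.05 the count was 1039 (6.17%), and DESeq2 called 9 genes higher and 16 lower. Between 0 and 2 genes were called with a set left out, 0 without E15.5 set 3 or 4 or E14.5 set 2. Without E14.5 set 3, which the labels describe differently, 1 gene was called and 1361 had an unadjusted edgeR p below 0.05. No list had a called member, although medians of 0.59 for plasma carriers and 0.96 for periportal genes lay above the 0.00 of all genes. Each day had 3 sums, E14.5 set 2 held only 3 cells, and recovery of changes was not simulated for this comparison. A lack of calls therefore does not show that the days are alike.

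Alb averaged 63840 ± 15184 normalised CPM at E15.5 and 40651 ± 8979 at E14.5 (0.65, edgeR adjusted p = 0.827). Fbp1 averaged 40.1 ± 38.1 at E15.5 and 1.87 at E14.5 (4.11 ± 1.46, edgeR adjusted p = 0.754), and Top2a changed by 0.00. Whether the step to E17.5 is larger than the step to E15.5 was not tested, and the first spans more time.

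The bulk libraries were compared in the same way, 2 of E17.5 against 2 of E15.5, in a fit of all 18. Of 15275 genes, 1595 were higher (10.4%) and 1668 lower (10.9%), 21.4% in all, and 33.7% had an unadjusted p below 0.05. Leaving out a library lowered the total to 1454 without E17.5 library 1, 1604 without E15.5 library 1 and 2021 without E15.5 library 2. In sorted bulk samples fewer cells of a type and less RNA per cell cannot be told apart. Among 14179 genes tested in both, 346 of the 429 genes higher in E17.5 cells were also called higher in bulk, which is 80.7% of the cells' list and 21.9% of the bulk's. Of 581 genes lower in E17.5 cells 367 were also called lower, 63.2% of the cells' list and 24.1% of the bulk's, and none was called in the opposite direction.

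More members of the metabolic lists passed in bulk, where 10.4% of all genes tested were called higher, beside 2.57% in cells. The counts were 11 of 14 for gluconeogenesis, 10 of 14 for bile acids, 13 of 19 for xenobiotic metabolism and 8 of 12 for the periportal list, all higher. With a library left out these counts were as low as 7 for gluconeogenesis and 7 for xenobiotic metabolism, both without E15.5 library 1, and 4 for the periportal list, without E15.5 library 1 or E17.5 library 1. Of 20 liver transcription factors 6 were higher and 1 lower in bulk, among them Cebpa (1.36 ± 0.24, edgeR adjusted p = 0.00103) and Nr1h4 (1.91 ± 0.29, edgeR adjusted p = 0.000429). Of 20 cell cycle genes 19 were lower. Cps1 was called in bulk, at 2537 and 2576 normalised CPM in E17.5 libraries against 748 and 688 in E15.5 libraries (1.83 ± 0.58, edgeR adjusted p = 0.0347), though not with any 1 library left out (0.0886 to 0.163). Alb was not, at 242001 and 211124 in E17.5 libraries and 97284 and 118726 in E15.5 libraries (1.07 ± 0.38, edgeR adjusted p = 0.0602, and 0.00455 with DESeq2). Some genes of other cell types were called lower in bulk too, in the stellate, mesothelial, macrophage and erythroid lists, while Epcam, Spp1, Stab2 and Csf1r were called higher. Col1a1, a fibroblast collagen, averaged 11.3 ± 2.87 in E17.5 and 154 ± 37.8 in E15.5 libraries (SD, n = 2 each), and 8 of 12 stellate and mesenchymal genes were lower, though none of the 12 was called without E17.5 library 1. Their part in the bulk counts was not tested.

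The bulk series also covers the day between and the day after, given here as levels with no test. Fbp1 had 25.5 and 48.9 normalised CPM at E15.5, 139 and 71.7 at E16.5, 1546 and 1271 at E17.5, and 2166 and 1801 at E18.5. Fgb had 2955 and 3574 at E15.5, 4758 and 4019 at E16.5, 16788 and 15470 at E17.5, and 27126 and 21562 at E18.5. Serpina6 had 5487 and 5855 at E15.5, 4777 and 6198 at E16.5, 785 and 881 at E17.5, and 29.0 and 54.8 at E18.5. For these 3 genes the E16.5 libraries lay nearer to E15.5 than to E17.5.

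Like Fbp1, Fgb and Serpina6, other genes kept moving after E17.5. G6pc had 0.818 and 0.785 normalised CPM in E15.5 libraries, 2.49 and 0.242 at E16.5, 17.1 and 41.7 at E17.5, and 507 and 700 at E18.5. Cyp2e1 had 1.40 and 1.81 at E15.5, 6.64 and 2.96 at E16.5, 89.6 and 97.3 at E17.5, and 1103 and 636 at E18.5. Both, found in a minority of E17.5 cells, were thus higher in both E18.5 libraries than in either E17.5 library.

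How alike the cells of a set were was measured as the median pairwise Spearman correlation of log2(CPM + 1) over 7959 genes. The E17.5 sets had 0.657, 0.677, 0.685 and 0.728, and the E15.5 sets 0.658, 0.667 and 0.658. The 7 sets averaged 0.676 ± 0.0253, against 0.680 ± 0.0291 in the 14 DLK+ sets of E10.5 to E14.5, a difference of -0.00395 (exact two-sided permutation test over sets, p = 0.763). E17.5 sets averaged 0.687 ± 0.0296 and E15.5 sets 0.661 ± 0.00541 (0.0260, exact permutation p = 0.200, where 0.0286 is the smallest that 4 against 3 sets can give). By this measure the later cells were not more alike within a set beyond the spread between sets.

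The answer depended on the genes and on the measure. Over genes of at least 100 CPM, the 7 later sets exceeded the earlier 14 by 0.0534 (exact permutation p = 0.00558) and E17.5 exceeded E15.5 by 0.0803 (exact permutation p = 0.0286). With Pearson's correlation over the wider range of genes the first difference was 0.0358 (exact permutation p = 0.0160). By that measure the E17.5 sets had 0.647, 0.672, 0.676 and 0.722 and the E15.5 sets 0.607, 0.615 and 0.622, while the highest of the earlier sets had 0.646. E17.5 sets thus lay above all others by Pearson's measure, and E15.5 sets within the range of the earlier sets; E17.5 minus E15.5 was 0.0644 (exact permutation p = 0.0571). Thinning each cell to 500000 reads gave Spearman differences of -0.00629 and 0.0227.

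**Figure D3:**
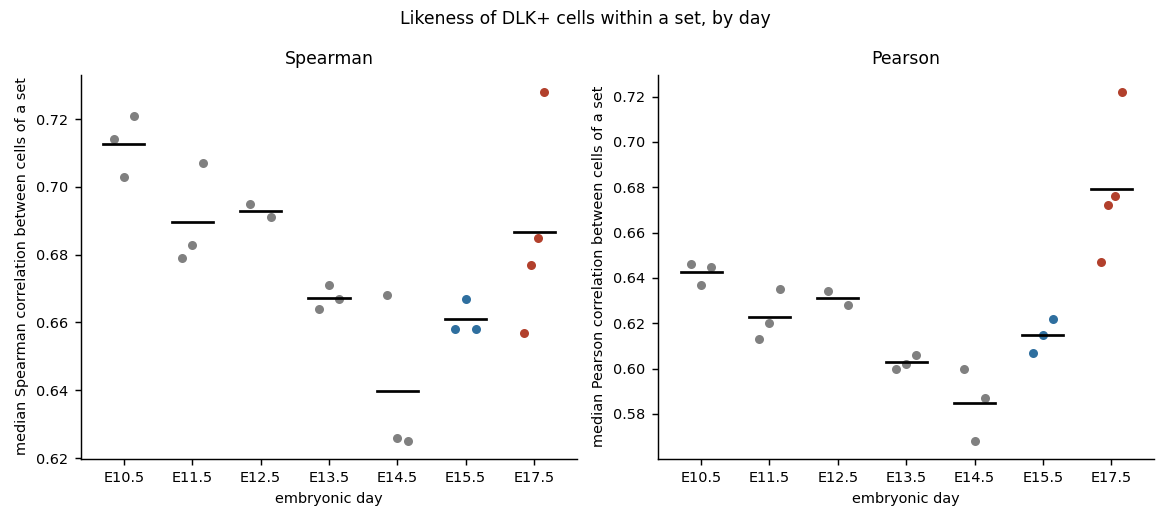
Median pairwise correlation between cells of a set, by day from E10.5 to E17.5, by Spearman's and by Pearson's measure; each point is 1 DLK+ set and bars are the means of a day. By Spearman's measure the E17.5 sets span 0.657 to 0.728 and overlap the earlier days.

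Cells lay nearest to cells of their own day. The median correlation between an E17.5 and an E15.5 cell was 0.624 over 1365 pairs. The nearest cell by correlation was sought among the DLK+ cells of E14.5, E15.5 and E17.5, and earlier days were not searched. It was of the same day for 35 of 35 E17.5 cells and for 38 of 39 E15.5 cells, the remaining cell being nearest to an E14.5 cell. Among cells of the same day only, the nearest lay in the same set for 10 of 35 E17.5 cells, where the sets' sizes give a share of 26.4%. For E15.5 cells it did so in 22 of 39, where the sizes give 35.8%.

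Cells of a day differed in proliferation. At least 10 of the 20 cell cycle genes reached 10 CPM in 3 of 35 E17.5 cells, all in set 1, in 19 of 39 E15.5 cells (7, 3 and 9 in sets 1, 3 and 4) and in 16 of 27 E14.5 cells. The mean log2(CPM + 1) over the list averaged 1.65 ± 0.389 over E17.5 sets and 3.81 ± 0.691 over E15.5 sets, a difference of -2.17 (exact permutation p = 0.0286, the smallest possible). Its SD between cells of a set was 1.25 at E17.5 and 2.17 at E15.5.

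Which genes varied was read from the within-set SD of log2(CPM + 1) of 2242 well-detected genes, set against genes of similar mean and ranked by the smaller excess of the 2 days. Arg1 was first, with an SD of 1.70 at E17.5 and 3.10 at E15.5, ranging from 1.81 over 1452 to 2871 CPM in E17.5 cells and from 0 over 249 to 884 CPM in E15.5 cells. Other genes among the 20 most variable were the cytochrome Cyp2d26 (1.52 at E17.5 and 1.92 at E15.5), the sulfotransferase Sult1a1 (1.57 and 2.12), the glyoxylate-detoxifying Agxt, the methyltransferase Bhmt and the basement membrane gene Nid1 (2.36 and 1.57). The least variable for their mean level included Ndufb4 (0.37 at E17.5 and 0.34 at E15.5) and Atp5l (0.34 and 0.31), both of the respiratory chain, and Cfb, Asgr2 and H3f3a. This rank is relative: Asgr2 had SDs of 0.63 and 0.79, beside medians of 0.72 and 0.66 over the 2242 genes.

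By list, 15 of 16 sterol and fatty acid synthesis genes varied more than genes of similar mean on both days, as did 13 of 17 plasma carriers, 10 of 14 urea cycle and amino acid genes, 7 of 8 xenobiotic genes and 5 of 5 acute-phase genes, beside 747 of all 2242. Of the secretory endoplasmic reticulum 2 of 12 genes did, and of fatty acid oxidation 4 of 14, a share close to that of all genes. Spread in the sterol list widened, with an SD of its mean between cells of a set of 0.91 at E17.5 and 0.49 at E15.5. Spread in plasma carriers narrowed, with 0.31 at E17.5 and 0.51 at E15.5, and these differences were not tested.

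**Figure D4:**
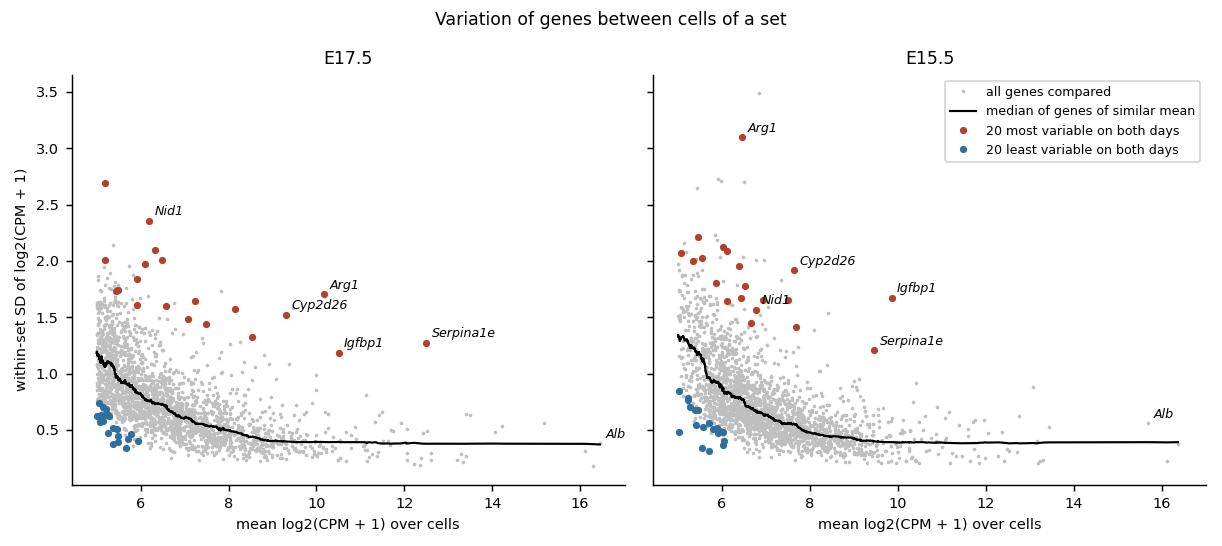
Within-set SD against mean of log2(CPM + 1) for 2242 genes; the 20 most and 20 least variable for their mean are marked and the line is a running median over genes of similar mean. Arg1 stands far above the line and Ndufb4 and Atp5l below it.

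Several list means varied together from cell to cell. Across the 35 E17.5 cells the mean of plasma carriers correlated with that of the periportal list at 0.74, the pericentral list at -0.74, the fetal liver list at -0.67 and the sterol list at -0.69, and across the 39 E15.5 cells the values were 0.78, -0.76, -0.74 and -0.52. Within single sets the value for the periportal list ran from -0.36 to 0.89 at E17.5 and from -0.18 to 0.91 at E15.5, so its sign was not the same in every set. A list of 82 ribosomal protein genes, chosen after seeing the data, ran most strongly against the carriers among the lists compared, at -0.84 in E17.5 and -0.86 in E15.5 cells. The periportal and pericentral means ran against each other at -0.87 in E17.5 and -0.75 in E15.5 cells, and at -0.85 and -0.75 when plasma protein reads were left out of the scaling. These are Pearson correlations of log2(CPM + 1) after the set means were taken off, given as descriptions, since the lists of a cell share its library and its scaling. The carriers also correlated with the number of detected genes (-0.72 at E17.5 and -0.47 at E15.5) and with the spike-in share (-0.45 and -0.22), whose part was not tested. With the cell cycle list the carriers correlated at -0.64 in E17.5 and -0.13 in E15.5 cells.

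**Figure D5:**
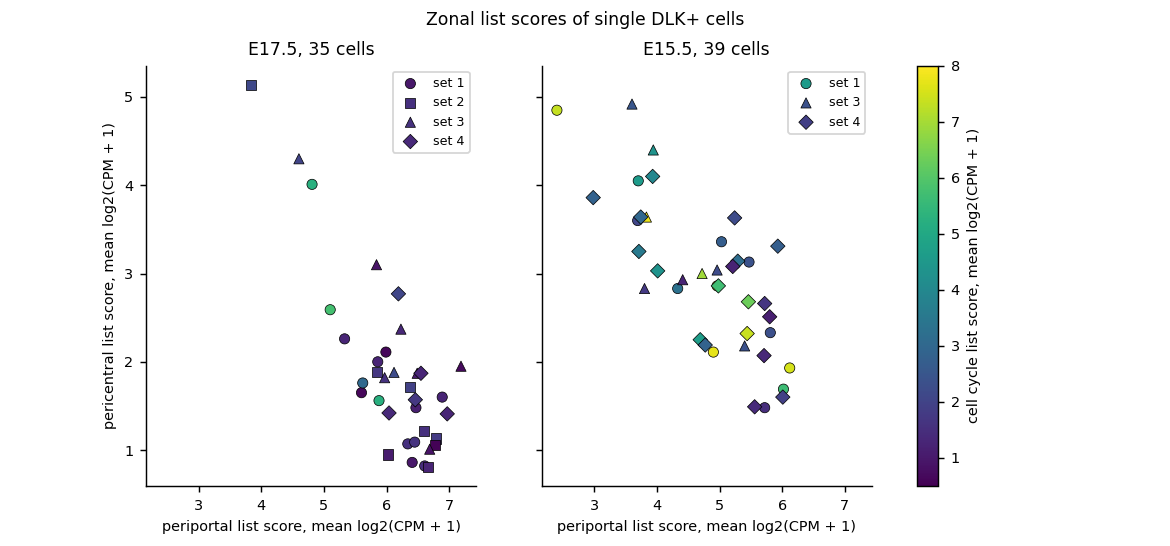
Mean log2(CPM + 1) of the periportal (x) and pericentral (y) lists in each cell, E17.5 left and E15.5 right; marker shape is the set and colour the cell cycle mean. The median E17.5 cell lies at 6.23 and 1.71 and the median E15.5 cell at 4.96 and 2.93, and a few cells of both days lie high on the pericentral axis.

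Single genes followed Alb unequally. Apoh correlated with Alb at 0.85 over E17.5 and 0.92 over E15.5 cells, Ahsg at 0.73 and 0.82, C3 at 0.78 and 0.79 and Arg1 at 0.75 and 0.67. Afp did so at -0.03 in E17.5 and 0.74 in E15.5 cells, and Apoa2 at -0.18 and 0.78. Over the genes set beside them the median was -0.28 at E17.5 (2385 genes) and -0.25 at E15.5 (3042 genes). Afp and Apoa2 thus went with Alb from cell to cell at E15.5 and not at E17.5, a difference between days that was not tested.

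A few cells stood away from their day. One cell of E17.5 set 2 had 37614 CPM Alb, 1.81 Arg1 and 37.0 Fbp1, the lowest of its day for each, together with 2629 CPM Cyp2e1, 372 Glul and 1188 Gulo. Its periportal mean of 3.83 and pericentral mean of 5.14 were the lowest and highest of the E17.5 cells. At E15.5, 1 cell of set 1 had the lowest Alb of its day, 18451 CPM, with 0 Arg1 and 982 Gulo, but 2.26 Cyp2e1 and 146 Glul. Its cell cycle mean was 7.35, and its fetal liver mean of 7.42 was the highest of the E15.5 cells.

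Genes chosen from the bulk libraries alone gave a second view of the order of cells: the mean of 376 genes higher in E17.5 bulk minus that of 121 lower ones. It ran from 1.36 over 4.73 to 5.56 in E17.5 cells, from -1.67 over 1.25 to 2.90 in E15.5 cells and from -2.22 over 0.28 to 2.04 in E14.5 cells. The days overlapped through 2 E17.5 cells of set 1, at 1.36 and 1.78, whose cell cycle means were 5.27 and 5.77, and 17 of the 121 lower genes belong to the cell cycle list. Another cell of that set, with a cell cycle mean of 5.24, lay at 3.24, above every E15.5 cell. On the higher genes alone, E17.5 cells spanned 5.65 to 6.98 and E15.5 cells 4.25 to 5.56, with no overlap. By the higher genes, the 2 overlapping cells of E17.5 set 1 therefore lay above every E15.5 cell.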

How the data were processed

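Gene counts of single cells and of bulk libraries were used as deposited. The authors' reads were aligned and counted with TopHat2 2.1.0, Bowtie2 and HTSeq 0.6.0 against GRCm38/mm10, per the submitters' processing notes, and the roles of these tools are not given in the sources used here. The deposited values are whole read counts per gene, without molecular identifiers. The authors' deposited TPM tables were not used, nor were 82 columns of cultured cells. Gene positions are from GENCODE M21.

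Reads of cells that share day, sort, labelled type and set number were summed where a set held at least 2 cells, giving 42 sums. These, and the 18 bulk libraries separately, were fitted with edgeR 4.0.16 (R 4.3.3; TMM scaling, filterByExpr with a smallest count of 10, glmQLFit and glmQLFTest, 1 spread over all groups). P-values were Benjamini-Hochberg adjusted over all genes tested and called below 0.05. Standard errors are the log2 change over the square root of F. Whether sets or libraries are separate animals is not stated, and each E15.5 set mixes cells of different embryos, so p-values measure only the spread between them. The alternatives were DESeq2 1.42.0, its size factors, no filter, fits of 2 groups, the set number as a block, and leaving out each set or library. On simulated counts for the comparison of days in cells (16008 genes), 29.0% of 2-fold and 67.0% of 4-fold changes were called, and 3.03% of calls were false. For bulk (15123 genes) these were 58.0%, 99.0% and 2.48%.

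Levels per cell are CPM of gene reads, spike-ins excluded, and scores are means of log2(CPM + 1) over a list. Correlations were taken in sets of 3 cells or more, over genes averaging 10 CPM or more across DLK+ cells. Tests over sets were exact permutations. Python 3.11.15, numpy 2.4.6, pandas 2.3.3, scipy 1.17.1 and matplotlib 3.10.9 were used. The cells and the gene lists were chosen with earlier results of these data known. Genes are named if called, without overlap and among the 10 largest changes in a direction at 10 CPM or more, or among the up to 4 strongest called members of a list, or as markers, by level or by variation; the other list members and genes named here (Trf, Serpina1a, F2, Kng1, Pygl, Cdk1, Mcm5, Igf2bp1, Mki67, Hnf4a, Cebpa, Nr1h4, H19, Igf2, Gpc3, Glul and Gulo among them) were chosen after their values were seen.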

Additional observations from a re-analysis of the deposited data

Results flagged for a closer look

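Of 72 results looked at, 4 had an E17.5 set far from the other sets of its day, by Dixon's criterion on the gap between that set and the next, as a share of the whole range; chance alone sets off this criterion in about 1 in 20 groups. Acadm had 1822 normalised CPM in E17.5 set 4, against 931, 989 and 1051 in the other E17.5 sets. Idi1, an enzyme of cholesterol synthesis, had 1040 in set 1, against 686, 651 and 635. Bub1, a mitotic checkpoint kinase, had 13.2 in set 1, against 1.38, 0 and 0, and set 1 also held the 3 E17.5 cells with at least 10 cell cycle genes detected. Reln, a secreted glycoprotein of stellate cells, had 80.0 in set 4, against 31.8, 36.8 and 32.8. Reasons for these gaps were not tested.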

How the results depend on the processing

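E17.5 against E15.5 in cells gave 1014 calls, 1530 with DESeq2 and 523 to 1037 with a set left out in turn. Of 76 named called genes, 43 were called under every left-out set and 49 under every other setting tried. Xist turned direction, at 0.60 and not called, with only cells of more Y-linked than Xist reads, a restriction chosen after seeing the data. That restriction removes the cells with more Xist reads, so the loss of the Xist fall is built into it. Of the calls 42.6% were higher at E17.5, against 62.7% with 2 groups fitted and 66.9% with the block. The set numbers pair nothing in the labels. Same-numbered sets deviated together at r = 0.224, 0.0433 and 0.213 (sets 1, 3 and 4), E17.5 sets 1, 3 and 4 each correlated best with their own number, and the replicate block gave 728 calls. E15.5 against E14.5 gave 2 calls, 25 with DESeq2, 1 without the filter, 0 with 2 groups fitted, 0 with the block and 0 to 2 with a set left out. Bulk gave 3263 calls, 1454 to 2526 with a library left out and 2378 with the block; library numbers deviated oppositely (r = -0.342), and the crossed pairing, added after seeing the data, gave 3547. The within-set correlation of later minus earlier days turned to 0.0358 by Pearson's measure and 0.0534 over genes of at least 100 CPM, and E17.5 minus E15.5 passed at 0.0803 over the same genes. The cell cycle difference of -2.17 ran from -2.46 to -1.79 with a set left out (exact permutation p 0.0667 to 0.100) and was -2.12 with the block (0.250), designs in which 0.05 cannot be reached. The causes were not tested. Lowly counted genes are limited by depth: a gene without reads in the E15.5 sums lies below 0.0816 CPM, the level of 3 reads over the group.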

Other observations

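The 3 EpCAM-sorted cells that carry the hepatoblast/hepatocyte label had hepatocyte levels of the markers. The E17.5 cell had 89973 CPM Alb, 43747 Ahsg, 1989 Fbp1 and 727 Cps1, with 76.3 Epcam, 6.76 Sox9 and no Krt19 read. The 2 E15.5 cells had 42146 and 86039 CPM Alb and 0 and 465 Fbp1, and 1 of them had 115 CPM Epcam while the other had none. Dlk1 was 73.4 CPM in the E17.5 cell and 892 and 1141 CPM in the E15.5 cells.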
